A study of Mus musculus with 18 samples.

Results

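The genes described here are the collagens and small leucine-rich proteoglycans on a mouse expression array, with 4 companion genes of fibroblasts and smooth muscle, the fibronectin gene Fn1, the growth factor gene Igf2 and the contractile genes Acta2 and Tagln. A gene belonged to the set where its symbol was Col, a number, the letter a and a number, or was Fmod, Lum, Dcn, Bgn, Ogn, Prelp or a companion. This gave 52 of the 18193 genes on the array, of which 42 were collagen chains, 6 were small leucine-rich proteoglycans and 4 were companions. Expression was measured on 18 Affymetrix arrays, in 6 groups of 3. Wildtype mice and SOD1 mutant mice each gave 3 kinds of sample. One was tissue of the ventral spinal cord, another was spinal motor neurons, and the last was motor neurons from the facial nucleus, which lies in the brainstem. The labels name T7-based amplification of the RNA for the samples. The mutant allele, its promoter, the age and sex of the mice, how the motor neurons were collected and whether animals were pooled are not given in the sources used here, and the code D60 in every title is not explained.

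Collagens are trimers of chains that each come from a gene of their own. The fibrillar types I, II, III, V, XI, XXIV and XXVII form the fibrils of connective tissue, type IV forms the sheet of basement membranes, type VI forms beaded filaments beside cells, and other types sit on fibril surfaces or span the cell membrane. Small leucine-rich proteoglycans bind collagen fibrils and set their width and spacing. In the central nervous system these genes are known mainly from meningeal and perivascular fibroblasts, from the cells of vessel walls and, after injury, from fibrotic scar. SOD1 encodes a cytosolic superoxide dismutase, and mutations in it can cause amyotrophic lateral sclerosis, a disease in which motor neurons die while microglia and astrocytes react.

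Stretches of DNA around transcription starts are shown for the genes on which several results turn, from RefSeq windows of the build GRCm38.p6. The windows reach from 250 bases before to 50 bases after a start, and 39 of the 52 genes had one. Col24a1 was the only 1 of the 39 whose window held the cyclic AMP response element TGACGTCA, a palindrome that reads the same on both strands. That is 2.56% of the 39 genes, near the 2.03% of 27025 mouse genes that had it in a window. The element begins 7 bases before the annotated start at 145292472 and is in capitals in the plus strand at chr3:145292222-145292496. Col1a2, a chain of type I collagen with a large difference between tissue and motor neurons, has CCAAT on the plus strand 109 bases before its start and ATTGG, the same motif on the minus strand, beginning at the start 4505618. Both are in capitals in the plus strand at chr6:4505368-4505642. CCAAT on either strand was in 16 of the 39 genes, 41% of them, against 41.1% of all genes, and TATAAA was in 6, or 15.4%, against 15.7%, so neither share stood above that of all genes. Col4a1 and Col4a2, the basement membrane pair, are read in opposite directions. The 22 bases at chr8:11312805-11312826 lie between the transcription starts that the Col4a2 and Col4a1 windows are built on, both included, and are shown on the plus strand, and the Col4a1 gene as annotated reaches on to 11312889.
Col24a1: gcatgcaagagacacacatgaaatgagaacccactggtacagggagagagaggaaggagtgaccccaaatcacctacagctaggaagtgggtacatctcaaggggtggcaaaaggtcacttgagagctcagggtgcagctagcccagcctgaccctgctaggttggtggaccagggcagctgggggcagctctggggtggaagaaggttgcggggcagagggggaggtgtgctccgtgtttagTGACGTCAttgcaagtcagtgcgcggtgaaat
Col1a2: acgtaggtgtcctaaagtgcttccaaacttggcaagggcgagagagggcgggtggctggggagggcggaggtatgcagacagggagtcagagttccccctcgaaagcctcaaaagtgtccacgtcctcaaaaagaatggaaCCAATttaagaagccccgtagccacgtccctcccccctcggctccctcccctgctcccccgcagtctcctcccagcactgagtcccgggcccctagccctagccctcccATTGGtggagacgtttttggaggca
Col4a1 and Col4a2: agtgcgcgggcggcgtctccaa
A match to these letters is a description of the window, and no binding was measured.

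Levels below are log2(intensity + 16) after quantile normalization, with n = 3 arrays per group and ± for the SD. Differences are on the same scale, SE is limma's standard error, and every adjusted p is limma's with Benjamini-Hochberg adjustment over the 10916 genes tested in a comparison. A group mean under 8.79 is called background, and no fold is given where a group lay there. That level is a rank among genes and no measured floor. It lies near the 40th percentile of gene means in a group. The Col19a1 mean of 8.8 in wildtype spinal motor neurons, for example, stood at percentile 40. Most genes on the array thus lie above it whether or not they are expressed. Sod1 rose in the tissue of mutants, from 16.10 to 16.49 (a log2 difference of 0.38, adjusted p = 0.0404). It measured 16.40 and 16.85 in spinal and 16.51 and 16.75 in facial motor neurons (adjusted p = 0.146 and 0.163). The 8 measured motor neuron markers summed to 13.90 to 14.39 on the tissue arrays and to 16.55 to 17.31 on the motor neuron arrays, so the motor neuron labels are borne out by their markers. The motor neuron arrays also held 10 to 12 of 12 astrocyte markers and all 11 oligodendrocyte markers above background, and no array group held any of the 4 measured blood markers above it. The 3' over 5' signal of the actin control, a ratio that grows as RNA is shortened, averaged 1.63 and 1.64 on tissue arrays against 30.7 to 67.6 in the motor neuron groups. Replicate 1 of the wildtype facial motor neurons stood apart from its group. It correlated with replicates 2 and 3 at r = 0.913 and 0.953 across genes, against 0.975 between replicates 2 and 3. Replicate 1 of the wildtype spinal motor neurons correlated with its group at 0.908 and 0.925.

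Of the 52 genes, 33 were above background in the tissue of each genotype. In spinal motor neurons 16 were above it in wildtype and 15 in mutants, and 24 and 17 were in facial motor neurons. In all, 37 were above background in at least 1 group, 8 in all 6 groups and 15 in none. Among the 15 were the cartilage chains Col2a1, Col9a1, Col9a2, Col9a3 and Col10a1 and the epithelial chain Col17a1. The count of genes above background was thus highest in tissue and lowest in spinal motor neurons, with no test of that order. As background is a level near the 40th percentile of genes, these counts place the set among all genes. They do not show which genes were detected.

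Fmod, Lum, Col3a1 and Col24a1 showed 4 different patterns over the 18 arrays. Fmod, which encodes fibromodulin, a proteoglycan of collagen fibrils, measured 12.54, 13.28 and 13.22 on wildtype and 13.24, 14.15 and 13.84 on mutant tissue arrays. In spinal motor neurons it measured 4.79, 5.31 and 4.41 in wildtype and 8.63, 10.10 and 7.95 in mutant samples. In facial motor neurons it measured 5.86, 13.09 and 12.27 in wildtype and 5.0, 5.03 and 7.64 in mutant samples. All tissue arrays were high, wildtype spinal motor neurons were at background, and the wildtype facial arrays were split, with replicate 2 within the range of tissue, replicate 3 just below it and replicate 1 at background.

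Lum encodes lumican, a proteoglycan that spaces fibrils in the cornea and elsewhere. Its tissue levels were 10.53, 11.0 and 11.27 in wildtype and 11.04, 12.90 and 12.26 in mutants. Spinal motor neurons had it at 8.13, 7.63 and 7.49 in wildtype and 9.02, 6.79 and 8.11 in mutants. Facial motor neurons had it at 12.02, 10.58 and 10.77 in wildtype and 10.34, 9.35 and 6.24 in mutants. Every wildtype facial array thus lay above every spinal motor neuron array, and above every mutant facial array.

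Col3a1, the single chain of type III collagen, a fibril former of vessels and scar, measured 12.45, 12.40 and 12.42 in wildtype and 12.59, 13.98 and 13.35 on mutant tissue arrays. Spinal motor neurons had it at 8.03, 7.29 and 7.67 in wildtype and 5.37, 9.28 and 4.86 in mutant samples. In facial motor neurons it measured 10.43, 11.71 and 11.03 in wildtype and 7.04, 9.92 and 9.01 in mutant samples. As with Lum, all 3 wildtype facial arrays lay above all mutant facial arrays.

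Col24a1, the chain of fibrillar type XXIV collagen, followed another course. It was at background in tissue, at 8.45, 7.96 and 8.68 in wildtype and 8.48, 7.86 and 8.40 in mutants. Spinal motor neurons had it at 9.89, 9.43 and 9.55 in wildtype and at 10.47, 10.47 and 10.16 in mutants. In facial motor neurons the order of the genotypes was turned, with 10.77, 10.89 and 10.80 in wildtype and 9.16, 9.28 and 9.43 in mutant samples. No motor neuron array lay as low as any tissue array, and the genotypes overlapped in neither kind of motor neuron. A single probe set measured this gene.

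**Figure D1:**
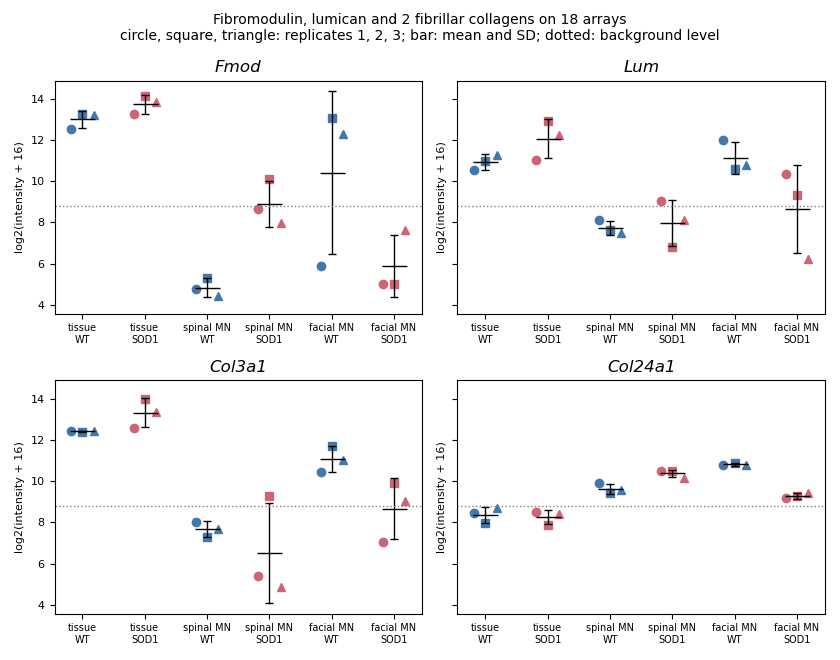
Log2(intensity + 16) of Fmod, Lum, Col3a1 and Col24a1 on each of the 18 arrays by group, with circles, squares and triangles for replicates 1, 2 and 3, bars for the mean and SD of 3 arrays, and a dotted line at the background level of 8.79. Fmod, Lum and Col3a1 were high on all tissue arrays, while Col24a1 lay under 8.79 there and reached 10.77 to 10.89 in wildtype facial motor neurons.

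Most genes of the set measured lower in spinal motor neurons than in tissue. In wildtype samples 19 of 29 tested genes were lower and 4 were higher, against 23% and 35.7% of all tested genes. In mutant samples 22 of 31 were lower and 6 were higher, against 26.7% and 42.2%. Of the tested genes, 17 of 29 and 19 of 31 had a group under the filter's level, and a gene that passed the filter through its high group alone had to differ. These counts and the medians of tested genes are therefore a description and no support for a direction. The groups did not overlap for 23 of the 29 and 27 of the 31, against 67% and 72.9% of all tested genes. The tested genes of the set had a median difference of -2.11 in wildtype samples and -2.79 in mutants, against 0.22 and 0.25 over all tested genes. Over all 52 genes, tested or not, 40 and 36 lay below 0, and the medians were -1.06 and -1.26. In these bulk samples fewer cells of a type and less RNA per cell cannot be told apart. The actin ratios of tissue and motor neurons do not overlap either, so the kind of sample and the length of the RNA cannot be told apart. With that ratio as a covariate 1 of the 29 and 0 of the 31 passed.

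All tested small leucine-rich proteoglycans were lower in spinal motor neurons, 5 of 5 in wildtype and 6 of 6 in mutant samples, against 23% and 26.7% of all tested genes. Most passed the filter through tissue alone, so this count is a description and no support for a direction. At background in motor neurons were Fmod, Ogn, Lum and Bgn in wildtype (4.84, 7.95, 7.75 and 7.85). In mutants Ogn, Lum, Bgn and Prelp were (7.01, 7.97, 7.94 and 7.31). Fmod was lower by a log2 difference of -8.18 in wildtype (SE 0.42, adjusted p = 3.5e-06) and of -4.85 in mutant samples, which is 28.8-fold (SE 0.46, adjusted p = 8.1e-06). That fold is inexact, as the mutant motor neuron mean of 8.89 was just above background, with replicates 1 and 3 under it (8.63 and 7.95). Its other 5 probe sets gave smaller differences, from -4.24 to -2.71 in wildtype and from -3.98 to -1.94 in mutants. Where a motor neuron mean lay under 8.79, as for Fmod (4.84), Igf2 (6.57) and Ogn (7.95) in wildtype, the size of a difference depends on values within background and has no exact meaning. Ogn, which encodes osteoglycin, measured 13.56 ± 0.29 in wildtype tissue and 7.95 ± 1.23 in wildtype spinal motor neurons, a difference of -5.60 (SE 0.53, adjusted p = 4.64e-05). In mutant samples its difference was -6.80 (SE 0.36, adjusted p = 1.95e-07). Lum was lower by differences of -3.18 (adjusted p = 0.000104) and -4.09 (adjusted p = 0.000122). Dcn, whose product decorin binds collagen and transforming growth factor beta, stayed above background on every motor neuron array. It measured 14.85, 15.21 and 15.02 in wildtype tissue and 12.62, 10.76 and 12.22 in wildtype spinal motor neurons, which is 8.94-fold lower (difference -3.16, SE 0.41, adjusted p = 0.000245). The mean of all Dcn probe sets gave -1.48 there and did not pass (adjusted p = 0.0802). In mutant samples it was 14.7-fold lower (difference -3.87, SE 0.59, adjusted p = 0.000212). Bgn, the gene of biglycan, had differences of -3.93 (adjusted p = 0.00258) and -4.18 (adjusted p = 0.000348). Prelp, a proteoglycan of basement membranes, was tested in mutant samples only, with -3.52 (adjusted p = 1.39e-05).

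The fibrillar collagens were split by chain. Of 10 tested, 6 were lower and 3 higher in each genotype. Of all tested genes 23% were lower and 35.7% higher in wildtype, and 26.7% and 42.2% in mutants. Of the lower chains, all but Col1a2 were at background in spinal motor neurons, and the higher chain Col24a1 was in tissue. These passed the filter through their other group alone, so the counts are a description and no support for a direction. Col1a2 measured 13.99, 14.16 and 14.54 in wildtype tissue and 10.20, 8.77 and 9.07 in wildtype spinal motor neurons, so the groups were far apart. It was 29.5-fold lower in wildtype (difference -4.88, SE 0.35, adjusted p = 1.39e-05) and 30.3-fold lower in mutant spinal motor neurons (difference -4.92, SE 0.21, adjusted p = 7.73e-08). Its partner chain Col1a1 had differences of -2.11 and -3.24 (adjusted p = 0.00162 and 0.000334). Col3a1 was lower by -4.76 in wildtype (SE 0.27, adjusted p = 5.29e-06) and by -6.80 in mutant samples (SE 0.95, adjusted p = 0.000115). Col5a2, Col11a1 and Col11a2 were the others that were lower in both genotypes.

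The fibrillar chains that were higher in spinal motor neurons were Col5a1, Col5a3 and Col24a1, in both genotypes. Col5a1 and Col5a3 encode chains of type V collagen, which starts and thins fibrils. Col5a1 measured 9.17, 9.64 and 9.34 in wildtype tissue and 11.58, 11.18 and 10.65 in wildtype spinal motor neurons. In mutants it measured 9.13, 9.79 and 9.64 in tissue and 11.97, 11.80 and 11.71 in spinal motor neurons. Neither pair of groups overlapped, and the gene was 3.38-fold higher in wildtype (log2 SE 0.30, adjusted p = 0.00106), and 4.96-fold higher in mutant spinal motor neurons (SE 0.21, adjusted p = 6.84e-06). A second bright Col5a1 probe set gave differences of 2.22 and 2.43, a dim one gave -1.04 and -0.03, and their mean did not pass in wildtype (0.98, adjusted p = 0.0552). Col5a3 was 1.94-fold and 2.35-fold higher (adjusted p = 0.0258 and 0.00101). The wildtype call did not hold without any one of the wildtype tissue arrays, where its adjusted p was 0.0606 to 0.104. Col24a1 was higher by differences of 1.26 (SE 0.37, adjusted p = 0.0176) and 2.12 (SE 0.29, adjusted p = 9.11e-05), and its wildtype call did not hold without wildtype tissue replicate 1 (adjusted p = 0.0528) or 2 (0.083). It was at background in tissue (8.36 and 8.25) and passed the filter through motor neurons alone.

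Outside the fibrillar group, Col22a1, a fibril-associated chain of tissue junctions, was higher in spinal motor neurons by differences of 1.72 (adjusted p = 0.00384) and 1.01 (adjusted p = 0.0229). The mutant call did not hold without mutant tissue replicate 2 (adjusted p = 0.0671) or 3 (0.0615). In mutant samples Col7a1, the anchoring fibril chain, was also higher (difference 2.05, adjusted p = 0.000364), and Col4a5, a basement membrane chain, was 1.95-fold higher (adjusted p = 0.00295). The mean of all Col4a5 probe sets gave 0.20 (adjusted p = 0.424). With all 18 arrays in one fit the mutant calls of Col22a1 and Col4a5 did not hold (adjusted p = 0.0861 and 0.0803). Col4a1, which with Col4a2 builds the common type IV trimer, was lower, 1.73-fold in wildtype and 1.37-fold in mutant samples (adjusted p = 0.00408 and 0.0145). Col4a2 had differences of -0.13 and 0.02 and did not pass. Of the type VI chains Col6a2 was lower in both genotypes, by -4.41 and -3.92 (adjusted p = 0.00065 and 0.00244), and Col6a1 and Col6a3 passed in mutants only, with -2.42 and -1.85. The transmembrane chains Col25a1 and Col23a1 were lower in both genotypes, by -3.13 and -1.91 in wildtype, as was the fibril-associated chain Col16a1 (2.01-fold). Col22a1 (8.18 and 8.45) and, in mutants, Col7a1 (8.02) were at background in tissue. Col6a2, Col25a1 and Col23a1 were so in spinal motor neurons of both genotypes, and Col6a1 and Col6a3 in mutant ones. All of these passed the filter through their high group alone, so their calls are a description and no support for a direction.

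The companions were lower in spinal motor neurons wherever tested, 3 of 3 in each genotype, against 23% and 26.7% of all tested genes. Igf2 and Acta2 were at background there (6.57 and 8.51 in wildtype, 8.26 and 8.20 in mutants) and passed the filter through tissue alone. That count is therefore no support for a direction. Igf2, a growth factor of meninges and fetal tissue, measured 13.83, 14.28 and 14.03 in wildtype tissue and 5.98, 6.69 and 7.04 in wildtype spinal motor neurons. Its differences were -7.47 (SE 0.31, adjusted p = 1.89e-06) and -6.28 (SE 0.60, adjusted p = 8.05e-06). Fn1, an adhesive glycoprotein of the matrix, was 13.9-fold lower in wildtype and 19.1-fold lower in mutant samples (adjusted p = 2.04e-05 and 2.94e-06). These folds are inexact, as its motor neuron mean of 8.9 in each genotype was just above background. A replicate of each group lay under it (8.24 in wildtype and 8.08 in mutants). Acta2, the actin of smooth muscle, had differences of -2.66 and -3.24 (adjusted p = 0.000384 and 1.21e-05). Markers of fibroblasts that are no members of the set were lower too, as were those of glia and vessels. The fibroblast markers summed to 18.25 to 18.51 on tissue arrays and 15.81 to 16.29 on spinal motor neuron arrays. Of those tested, 8 of 10 and 8 of 8 were lower, against 23% and 26.7% of all tested genes. Mural markers, of vessel wall cells, summed to 15.85 to 16.01 and to 12.61 to 13.43. In wildtype 11 of 12 astrocyte, 11 of 11 oligodendrocyte, 9 of 10 endothelial and 6 of 11 microglia markers were lower. In mutants 12 of 12, 11 of 11, 9 of 9 and 6 of 11 were, and 1 microglia marker was higher. The part of these cell types in the differences was not tested.

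**Figure D2:**
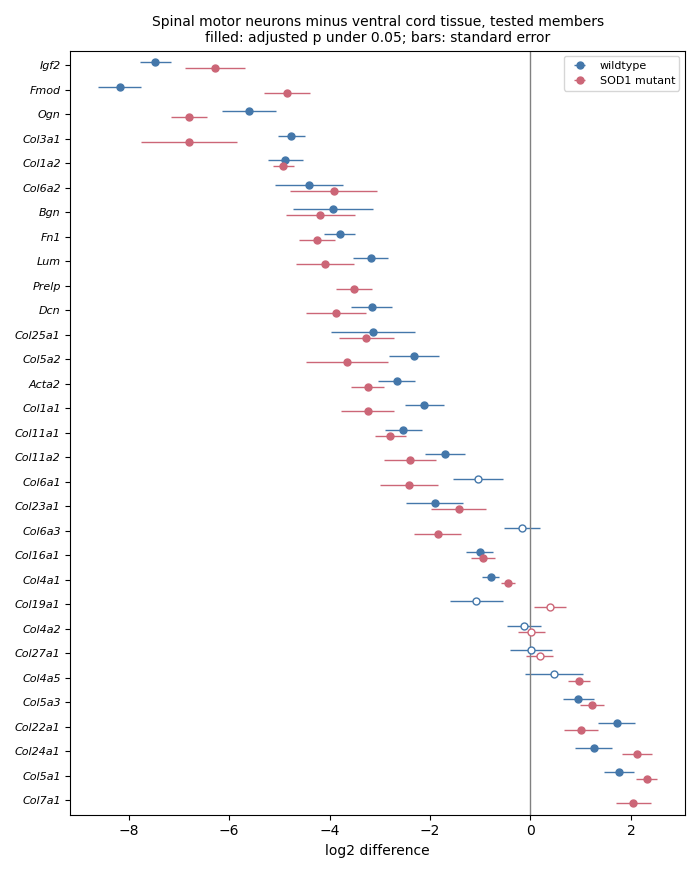
Log2 difference of spinal motor neurons minus ventral cord tissue for each tested gene, in wildtype (blue) and mutant (red) samples, with bars for limma's SE and filled points for an adjusted p under 0.05. Fmod, Igf2 and Ogn lie farthest to the left in wildtype and Ogn, Col3a1 and Igf2 in mutants, all with motor neuron means under 8.79, while Col5a1, Col24a1, Col22a1 and Col5a3 lie right of 0 in both genotypes.

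**Figure D3:**
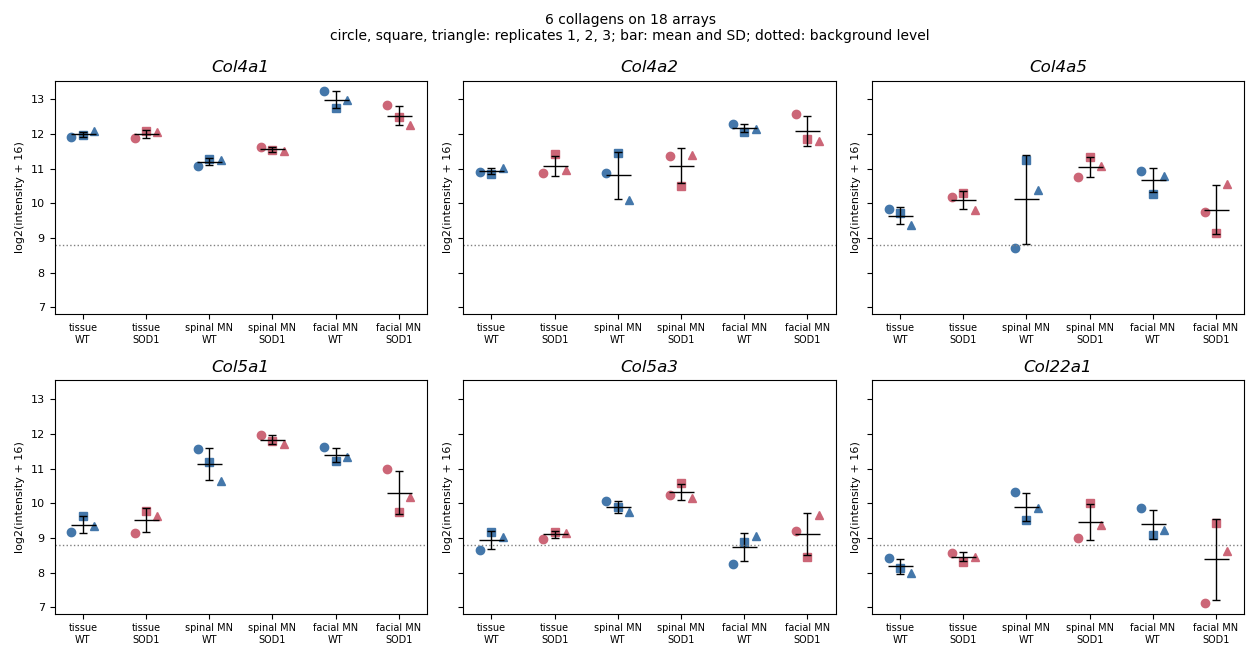
Log2(intensity + 16) on each array of 6 collagen chains that were above background in spinal motor neurons of both genotypes, with circles, squares and triangles for replicates 1, 2 and 3, bars for the mean and SD, and a dotted line at 8.79. Col5a1 and Col22a1 were higher in spinal motor neurons than in tissue, and Col4a1 and Col4a2 measured highest in facial motor neurons.

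Between genotypes, in tissue, most genes of the set measured higher in SOD1 mutants, and none passed the test. Of 33 tested, 0 passed, against 0.623% of all tested genes. At an unadjusted p under 0.05, 9 were higher and 0 lower, against 4.86% and 5.05% of all tested genes. The difference was above 0 for 29 of 33, against 48.8% of all tested genes, with a median of 0.33 against -0.01. Over all 52 genes, 38 were above 0 and the median was 0.21. The groups did not overlap for 4 higher genes and 1 lower one, against 15.7% of all tested genes. The smallest adjusted p belonged to Col3a1 (difference 0.88, SE 0.27, adjusted p = 0.31), Fmod (0.73, SE 0.24, adjusted p = 0.351) and Col8a1, a chain of vessel walls (0.74, SE 0.25, adjusted p = 0.36). Lum had the largest difference (1.13, SE 0.39, adjusted p = 0.367). Col24a1 had a difference of -0.11 and was below the filter.

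Mutant tissue replicate 1 measured lower than the other mutant arrays for Lum, Col3a1, Fmod, Igf2, Fn1, Ogn and Dcn. Dcn measured 14.76 there against 16.02 and 15.59 on replicates 2 and 3, and 14.85 to 15.21 in wildtype tissue. Fn1 measured 12.65, 13.58 and 13.23 in mutants and 12.62, 12.83 and 12.63 in wildtype. Without that array 4 genes passed, which were Col3a1 (adjusted p = 0.00994), Lum (0.0137), Dcn (0.0279) and Fn1 (0.041). With the actin ratio as a covariate 4 passed as well, Col3a1, Fmod, Igf2 and Lum. Of the fibroblast markers outside the set, 12 of 12 tested were above 0, against 48.8% of all tested genes. Their median was 0.20, and 0 passed. Their summed level was 18.25 to 18.40 in wildtype and 18.26 to 18.51 in mutant tissue. Microglia markers were higher in the same tissue, with 8 of 13 past the threshold, against 0.623% of all tested genes. Their summed level was 16.17 to 16.29 in wildtype and 16.83 to 17.00 in mutants. The part of either cell type in the differences of the set was not tested.

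Between genotypes, in spinal motor neurons, 0 of 16 tested genes passed, against 0.0641% of all tested genes. At an unadjusted p under 0.05, 3 were higher and 0 lower, against 4.72% and 4.75%, and the groups did not overlap for 4, all higher, against 6.91%. The 3 were Col19a1, a fibril-associated chain of neurons and muscle (difference 1.49, SE 0.58, adjusted p = 0.493), Col5a1 (0.69, SE 0.27, adjusted p = 0.494) and Col24a1 (0.75, SE 0.33, adjusted p = 0.523). Without 1 array the Col19a1 difference was 1.0 to 2.09, and it passed only without wildtype replicate 2 (adjusted p = 0.0468). The other Col19a1 probe sets gave 0.29 and 0.32, and the mean of all gave 0.70 (adjusted p = 0.689). Lum and Col3a1 were under the filter, with differences of 0.23 and -1.16. Microglia markers summed to 13.59 to 14.98 in wildtype and to 16.10 to 16.49 in mutant spinal motor neurons, and their part in these differences was not tested.

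Fmod was under the filter in spinal motor neurons, although all 3 mutant arrays lay above all wildtype arrays. With no filter its difference was 4.06 (SE 0.79, unadjusted p = 0.000251, adjusted p = 0.147). The other 5 Fmod probe sets were 0.76 to 2.03 higher. In tissue the Fmod difference between genotypes was 0.73, and the interaction of genotype with kind of sample, which rests on the wildtype motor neuron values within background, was 3.32 (SE 0.65, adjusted p = 0.162), the eleventh smallest p of 10916. The mean of all Fmod probe sets gave 1.06 (adjusted p = 0.591). The interaction passed without wildtype spinal replicate 2 (adjusted p = 0.00991) or mutant spinal replicate 3 (adjusted p = 0.0407). In that interaction test 0 of 31 genes of the set passed, against 0.055% of all tested genes, and 3 had an unadjusted p under 0.05, against 8.82%. These were Fmod, Col6a3 (-1.68, adjusted p = 0.525) and Col19a1 (1.48, adjusted p = 0.563). Of the 31, 21 had a group under the filter's level. Lum, Col3a1 and Col24a1 gave -0.91, -2.05 and 0.86.

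Between genotypes, in facial motor neurons, 0 of 22 tested genes passed, and 0% of all tested genes did. At an unadjusted p under 0.05, 0 were higher and 5 lower in mutants, against 9.14% and 8.69%. The groups did not overlap for 5 genes, all lower, against 11.1% of all tested genes. The difference was below 0 for 19 of 22, with a median of -0.56 against 0.02 over all tested genes, of which 52.1% were above 0. Of the 22, 7 had a group under the filter's level, so these counts are a description and no support for a direction. Over all 52 genes 32 were below 0, with a median of -0.30. Col24a1 had the smallest p of the set, with a difference of -1.52 (SE 0.27, adjusted p = 0.0997), and its 2.88-fold lower level in mutants passed with all 18 arrays in one fit (adjusted p = 0.0104) and without mutant replicate 2 (adjusted p = 0.0373). Col3a1 measured lower by -2.40 (SE 0.66, adjusted p = 0.148), Col5a1 by -1.09 (SE 0.32, adjusted p = 0.16) and Lum by -2.48 (SE 0.89, adjusted p = 0.21). Col3a1 and Lum were at background in mutants (8.66 and 8.64) and passed the filter through wildtype alone. Without mutant replicate 2, Col3a1 passed too (adjusted p = 0.049). The second bright Col5a1 probe set gave -0.01. Fmod was under the filter, with -4.52, and its other probe sets gave -3.62 to -2.32. Facial motor neurons had an actin ratio of 67.6 ± 7.44 (wildtype) and 39.8 ± 17.0 (mutant), and with it as a covariate 0 genes of the set passed.

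Acta2, Tagln and Igf2 were far lower on replicate 1 than on replicates 2 and 3 of wildtype facial motor neurons, and Acta2 alone of these was so in mutants. Acta2 measured 4.62, 14.77 and 14.16 in wildtype and 6.05, 12.34 and 11.40 in mutant samples. Replicates 2 and 3 of wildtype lay above every tissue array (10.95 to 11.80), and replicate 1 was at background. Tagln, a partner of smooth muscle actin, measured 5.06, 11.44 and 10.61 in wildtype and 6.10, 7.94 and 6.32 in mutants. Igf2 measured 5.70, 12.39 and 11.69 in wildtype and 6.56, 6.92 and 9.91 in mutants. In wildtype the step between replicate 1 and the others was over 5 on the log2 scale in all of these. Fmod and Ogn were low on the same wildtype array, Fn1 was alike on all 3 arrays, and Lum was highest on replicate 1. The mural markers Myl9 and Myh11, outside the set, were also low there, at 4.57 against 12.27 and 11.22, and at 7.54 against 10.85 and 10.09. The summed level of fibroblast markers was 16.12 to 17.11 in wildtype and 15.58 to 16.59 in mutant facial motor neurons, and their part in the genotype differences was not tested. Without both replicate 1 arrays, a choice made after the data were seen, 0 of 24 tested genes passed, with Fmod at -6.34 and Acta2 at -2.60 (both adjusted p = 0.11).

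**Figure D4:**
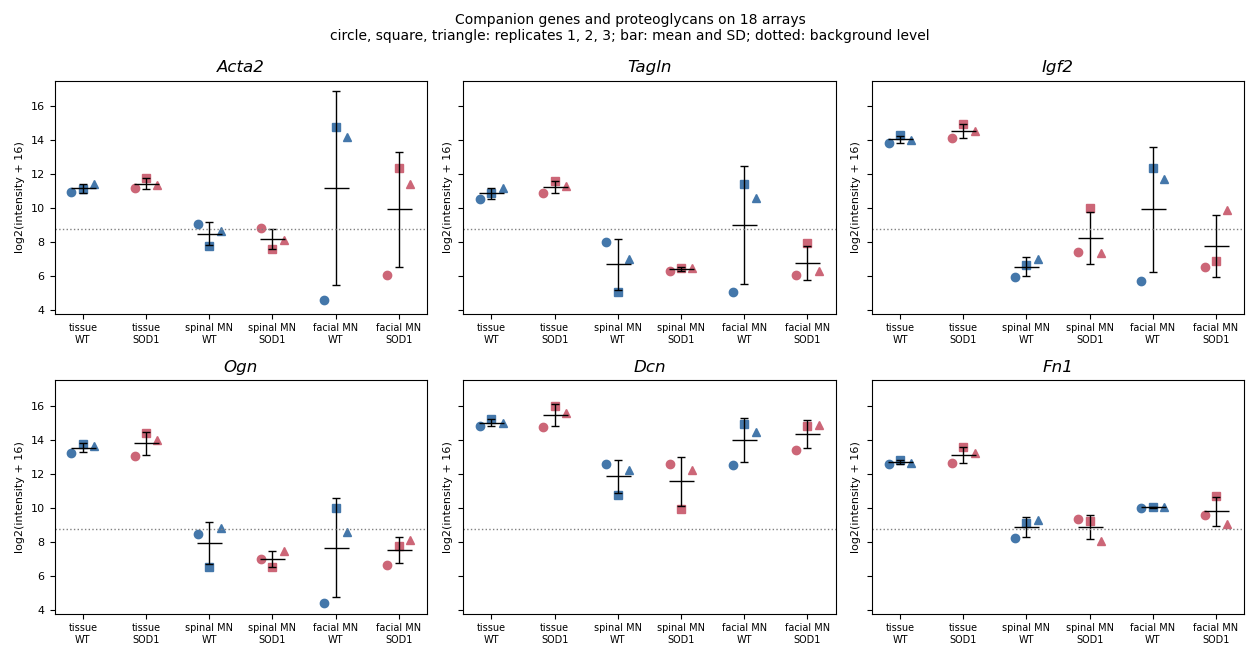
Log2(intensity + 16) of Acta2, Tagln, Igf2, Ogn, Dcn and Fn1 on each of the 18 arrays, with circles, squares and triangles for replicates 1, 2 and 3, bars for the mean and SD, and a dotted line at 8.79. Replicate 1 of wildtype facial motor neurons lies at 4.62 for Acta2 against 14.77 and 14.16, while the 3 arrays of that group lie between 10 and 10.08 for Fn1.

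The genotype differences of spinal and facial motor neurons were then compared with each other. In that interaction test 0 of 18 genes of the set passed, and 0% of all tested genes did. At an unadjusted p under 0.05, 5 were higher and 0 lower, against 4.37% and 4.64%. Of the 18, 8 had a group under the filter's level, so these counts are a description and no support for a direction. Col24a1 had the smallest p of all 10916 tested genes, with an interaction of 2.27 (SE 0.40, unadjusted p = 4.54e-05, adjusted p = 0.222). It passed without the mean-variance trend (adjusted p = 0.0124) and with all 18 arrays in one fit (adjusted p = 0.0312), and with any array left out its adjusted p was 0.0754 to 0.605. Col5a1 followed with 1.78 (SE 0.44, adjusted p = 0.337), then Col4a1 with 0.82 (adjusted p = 0.459), Col4a5 with 1.78 (adjusted p = 0.519) and Lum with 2.71 (adjusted p = 0.541). Fmod and Col3a1 were under the filter, with 8.57 and 1.24. By its brightest probe set, each of the 5 had a higher value in mutant than in wildtype spinal motor neurons. On the same probe sets the mutant value was the lower one for facial samples. The dimmer Col4a1 probe set had both signs reversed, at -0.23 (spinal) and 0.3 (facial). The other Col4a5 probe set was lower in mutants for both kinds, at -0.47 and -0.7. The second bright Col5a1 probe set gave 0.57 and -0.01, and the dim one gave 1.57 and -0.81. Col24a1 and Lum had 1 probe set each. Lum was at background in wildtype and mutant spinal motor neurons (7.75 and 7.97) and in mutant facial ones (8.64). Its spinal sign thus rests on values within background.

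**Figure D5:**
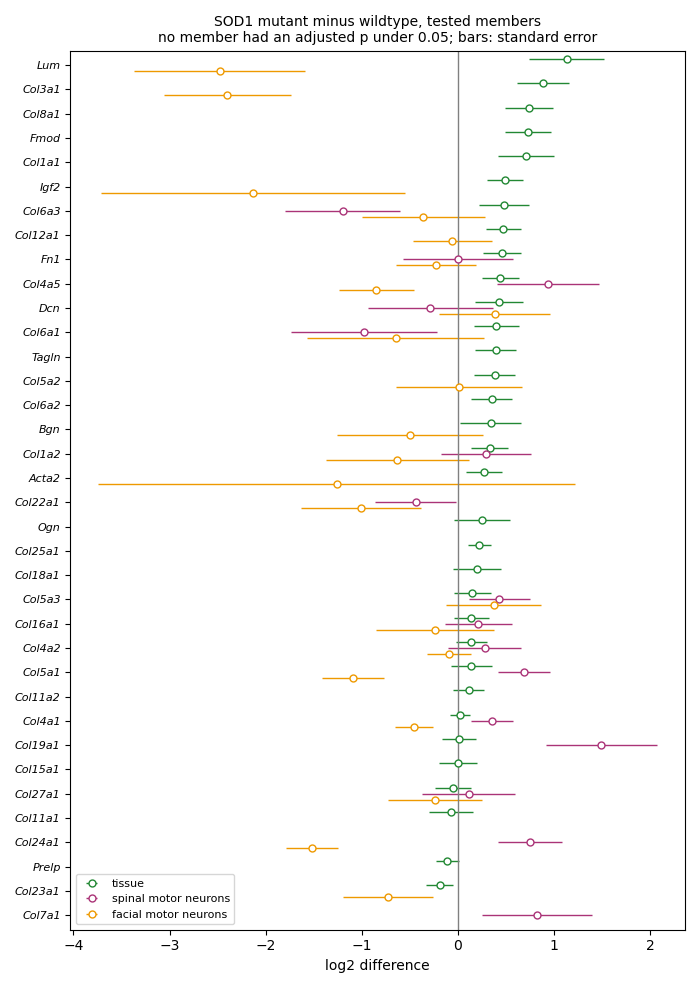
Log2 difference of SOD1 mutant minus wildtype for each tested gene in tissue (green), spinal motor neurons (purple) and facial motor neurons (orange), with bars for limma's SE. No gene had an adjusted p under 0.05. In tissue 29 of 33 points lie right of 0, in facial motor neurons 19 of 22 lie left of it, and Col24a1 and Col5a1 lie on opposite sides in the 2 kinds of motor neuron.

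Spinal and facial motor neurons of one genotype differed in a few genes of the set. In wildtype 3 of 19 tested genes were lower in spinal motor neurons and 0 higher, against 1.84% and 2.14% of all tested genes. The groups did not overlap for 8, against 28.4%. Col4a1 measured 11.09, 11.27 and 11.24 in spinal and 13.24, 12.75 and 12.99 in facial motor neurons, so every facial array was higher. It was 3.46-fold lower in spinal motor neurons (difference -1.79, SE 0.21, adjusted p = 0.0041). A second, dimmer probe set gave 0.88, the opposite sign, and the mean of both did not pass (-0.45, adjusted p = 0.613). Col3a1 (difference -3.39, SE 0.48, adjusted p = 0.00755) and Lum (-3.38, SE 0.49, adjusted p = 0.00922) were the others. Both were at background in wildtype spinal motor neurons (7.67 and 7.75) and passed the filter through the facial group alone. Of the 19 tested genes, 5 had a group under the filter's level, so the counts are a description and no support for a direction. Col3a1 did not pass without wildtype facial replicate 2 (adjusted p = 0.0523) or 3 (0.0615), nor Lum without wildtype spinal replicate 3 (0.0529). Col24a1 had -1.20 (SE 0.30, adjusted p = 0.0596). Fmod was under the filter, with -5.57. Without the wildtype facial replicate 1 that stood apart, 5 genes passed, adding Acta2 (-5.95, adjusted p = 0.000611) and Dcn (-2.85, adjusted p = 0.0259). The choice to name that array was made after the data were seen. For Acta2 it was at background (4.62), as was the wildtype spinal mean (8.51). Facial replicates 2 and 3 (14.77 and 14.16) lay above every tissue array. With the actin ratio as a covariate 0 passed.

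In mutant samples 2 of 16 tested genes were higher and 2 lower in spinal than in facial motor neurons, against 4.08% and 3.22% of all tested genes. The groups did not overlap for 9, against 28.4%. Col5a1 measured 11.97, 11.80 and 11.71 in spinal and 10.98, 9.76 and 10.19 in facial motor neurons, 2.86-fold higher in the former (SE 0.30, adjusted p = 0.0119). Col19a1 was higher by 1.57 (SE 0.41, adjusted p = 0.0377), with a facial mean of 8.72 at background. Of the 16 tested genes, 5 had a group under the filter's level, Col19a1 among them, so these counts too are a description. Dcn was 6.89-fold lower, at 12.59, 9.92 and 12.24 in spinal and 13.42, 14.80 and 14.87 in facial motor neurons (SE 0.57, adjusted p = 0.0142). Col4a1 was 1.96-fold lower (SE 0.20, adjusted p = 0.0163). Col24a1 had 1.07 (SE 0.31, adjusted p = 0.0591), and Fmod, Lum and Col3a1 were under the filter with 3.0, -0.67 and -2.15. Of these, Dcn passed with any 1 array left out, and Col5a1 with any but mutant spinal replicate 1 (adjusted p = 0.0562). Col4a1 did not pass without any one of the 3 spinal arrays or facial replicate 1 (adjusted p = 0.0503 to 0.0579). Col19a1 passed only without spinal replicate 3, and its adjusted p was 0.0512 to 0.178 without each of the others. The second bright Col5a1 probe set gave 0.61. With the mean of all probe sets of a gene 0 passed (limma). Both sets of comparisons share their spinal arrays with those against tissue.

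Genes that build, cut and sense the matrix, outside the set, were counted from lists. Of 28 measured genes of collagen synthesis and crosslinking, 3 of 22 tested were higher and 10 lower in wildtype spinal motor neurons than in tissue, and 4 and 10 of 19 in mutant ones. Of all tested genes 35.7% were higher and 23% lower in wildtype, and 42.2% and 26.7% in mutants, which is the background for each list counted against tissue here. Serpinh1, the collagen chaperone HSP47, was 3.29-fold and 6.69-fold lower (adjusted p = 0.00086 and 4.68e-05). P3h4, a factor of lysine and proline modification, was 5.85-fold and 3.27-fold lower (adjusted p = 0.000135 and 2.43e-05). Between genotypes 0 of these genes passed in tissue, spinal or facial motor neurons (limma), with medians of 0.09, 0.12 and -0.12. In mutant tissue Timp1, an inhibitor of matrix metalloproteinases, rose (difference 1.74, adjusted p = 0.0173), and so did Cd44, a receptor of hyaluronan and collagen (1.79-fold, adjusted p = 0.022). They were the only ones to pass of 11 tested proteases and inhibitors and 11 tested matrix receptors. Of the insulin-like growth factor genes outside the set, 7 of 10 tested in wildtype and 7 of 9 in mutant samples were lower in spinal motor neurons than in tissue, among them Igfbp5 at 11.2-fold and 8.02-fold (adjusted p = 5.29e-06 and 3.15e-06). Between genotypes 0 of them passed, with a median of 0.36 in tissue and -0.56 in facial motor neurons. Of the ligands, receptors and targets of transforming growth factor beta, a known inducer of collagen genes, 0 of 17 tested passed between genotypes in tissue, where 12 were above 0 with a median of 0.09. Against tissue, 4 of 16 of them were higher and 4 lower in wildtype spinal motor neurons, and 4 and 8 of 16 in mutant ones.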

How the data were processed

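The authors deposited linear intensities of 45101 probe sets on 18 arrays; the steps before deposit are not given in the sources used here. Each array had a trimmed mean of 2500, which puts all on 1 scale, with medians of 533 to 583 (tissue) and 286 to 341 (motor neurons). The log2 of intensity + 16 was quantile normalized across all 18. Of the probe sets, 34945 had 1 gene symbol in the platform annotation, 932 several and 9160 none, and 64 were controls. A gene was represented by its brightest single-symbol probe set over the 18 arrays, and 35 genes of the set had several. A fit kept the 10916 genes whose mean reached the 40th percentile over its arrays. Tests used limma 3.58.1 under R 4.3.3 (eBayes with trend), with only the groups of a comparison in its fit, and adjusted p under 0.05 counts as passed. The script was tested on simulated data. Arrays have no read depth; 3 arrays per group limit the precision, and p-values measure the spread between samples that the labels tie to no animals. The text names all passing genes, or the 10 with the largest difference in a direction, or the 3 smallest p, plus Fmod, Lum, Col3a1 and Col24a1. At most 4 genes of a list are named per comparison. Members, lists and rules were chosen with earlier results of these data known. Replicate numbers of the titles were checked for pairing, which was neither shown nor excluded.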

Additional observations from a re-analysis of the deposited data

How the results depend on the processing

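Of 158 recomputed counts of passing genes, 135 stayed within 1.5 times the value above and 23 moved. Of 964 recomputed differences of single genes, 871 kept direction and side of the threshold, 62 lost their pass, 21 gained one and 10 turned sign. All 10 turned with the actin ratio as a covariate between motor neurons and tissue, where it is almost the group itself. In wildtype samples these were Col22a1 (-5.47), Col24a1 (-3.18), Col5a1 (-3.97), Col5a3 (-0.74), Fn1 (6.28) and Igf2 (1.92), and in mutants Col24a1 (-0.08), Col3a1 (1.33), Col6a2 (5.24) and Igf2 (0.36), with 1 and 0 genes passing in all. That covariate left 0 between wildtype spinal and facial motor neurons and gave 4 between genotypes in tissue. The filter at the 60th percentile, under which fewer genes were tested, left 3 for spinal motor neurons against tissue in wildtype samples, and 6 in mutants. All 18 arrays in one fit gave 1 between genotypes in facial motor neurons, 1 for the interaction of spinal and facial motor neurons, and 7 and 7 between spinal and facial motor neurons in wildtype and mutants. No trend gave 1 for that interaction and 1 between spinal and facial motor neurons in mutants, and the mean of all probe sets gave 0 there. The cause was not tested. Leaving out 1 array gave 0 to 4 passing genes between genotypes in tissue, 0 to 1 in spinal and 0 to 2 in facial motor neurons. It gave 0 to 3 and 0 to 0 for the interactions with tissue and with facial motor neurons, 17 to 26 and 21 to 28 against tissue in wildtype and mutants, and 2 to 5 and 1 to 4 between spinal and facial motor neurons. As a check of the pairing, deviations of same-numbered samples of both genotypes correlated at 0.30, 0.05 and 0.08 in tissue, 0.02, 0.08 and 0.04 in spinal and 0.14, 0.13 and 0.04 in facial motor neurons. The highest correlations with another number were -0.07, 0.17 and 0.02 in tissue. They were 0.02, -0.03 and 0.01 in spinal and -0.1, 0.05 and 0.01 in facial motor neurons. Most same-numbered values were thus the higher ones, though small, and a pairing is neither shown nor excluded. With the replicate number as a block 2 genes passed between genotypes in tissue, Fmod (0.73, adjusted p = 0.00742) and Igf2 (0.49, adjusted p = 0.0325). In the other comparisons the block moved no count by over 1.5 times.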

Other observations

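Against tissue, 2 of 10 tested proteases and inhibitors were higher and 5 lower in wildtype spinal motor neurons, and 2 and 7 of 11 in mutant ones. Of the matrix receptors 2 of 9 were higher and 3 lower in wildtype, and 4 and 3 of 11 in mutants. Some single genes were high in motor neurons. Mmp9, a gelatinase, measured 13.43 in wildtype spinal motor neurons against 9.49 in tissue, which is 15.4-fold (limma, adjusted p = 1.03e-05), and 18.1-fold in mutant samples (adjusted p = 6.93e-08). It was also higher in spinal than in facial motor neurons, 3.82-fold in wildtype and 2.58-fold in mutants (adjusted p = 0.00755 and 0.00646). Mmp16, a membrane-bound metalloproteinase, was 5.36-fold and 3.85-fold higher there (adjusted p = 0.00539 and 0.0119). Itga3, a laminin receptor subunit, was 5.23-fold and 5.60-fold higher in spinal motor neurons than in tissue (adjusted p = 8.06e-05 and 1.72e-06). Sparc, a collagen-binding glycoprotein of glia and vessels, had an interaction of genotype with spinal motor neurons against tissue of 0.93 (adjusted p = 0.0393). Its level in spinal motor neurons was 13.86 in wildtype and 14.84 in mutants. Lists and genes were chosen with results of these data known.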
